A study of Mus musculus with 28 samples.

Results

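The 9 genes described here, Rbpms, Pou4f1, Pou4f2, Sncg, Thy1, Slc17a6, Isl1, Ebf3 and Nrn1, are commonly used to recognize retinal ganglion cells (RGCs), and they were taken by name from the 23995 genes listed in each file. RGCs are the only neurons that carry visual signals out of the eye, and in the mouse most of their axons end in the superior colliculus (SC), a visual center of the midbrain. Their identity is set by transcription factors of the POU4, LIM-homeodomain and EBF families, whereas their mature function rests on proteins such as the vesicular glutamate transporter that loads their synaptic vesicles. These mRNAs were followed as the fraction bound to ribosomes in retina, which holds the RGC somata, and in SC, which holds their axon terminals. The comparisons ask whether mRNAs that define the cell are found on ribosomes in its axon, above what the procedure recovers when no ribosome is tagged.

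The mice (C57BL/6) came from a cross of RiboTag with Pax6-alpha-Cre. RiboTag is a knock-in allele in which Cre recombination turns the ribosomal protein gene Rpl22 into a hemagglutinin-tagged form, and Pax6-alpha-Cre is active for a short time in progenitors of the peripheral retina, so that tagged ribosomes are carried by RGCs and by other retinal cells. All animals carried the RiboTag allele, and those without Cre were littermates with no tagged ribosome. Tissue of 3 eyes or 6 SCs was pooled, tagged ribosomes were immunoprecipitated (TRAP, translating ribosome affinity purification), and the bound mRNA was amplified from oligo(dT) primers, with 5 more PCR rounds for SC than for eye. The 24 libraries made up 12 groups of 2 replicates, namely Cre-positive SC, Cre-negative SC and Cre-positive retina at embryonic stage E17.5, at the postnatal days P0.5 and P7.5, and in adult mice. A further 4 adult libraries, 1 each, came from Cre-positive SC or retina after ribosome run-off or without it, an incubation with harringtonine and 4E1RCat that lets elongating ribosomes leave their mRNA while new ones cannot start.

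Expression was given as FPKM, a number of fragments scaled to transcript length and to library size. Whether amplification from oligo(dT) primers recovered all transcripts evenly was not tested. Levels of different genes are therefore listed values and not a measured ranking. Depth was not stated for these libraries and was estimated from the spacing of low values at between 462381 fragments (replicate 1 of Cre-negative SC at E17.5) and 13031668 (replicate 2 of the same group). The 4 adult SC libraries were also shallow, at 501187 to 2041738 fragments. Replicates correlated with r between 0.176 in Cre-negative SC at E17.5 and 0.945 in retina at P0.5, across the genes above 0 FPKM in either library. Several genes that every cell uses were listed at 0 (Gapdh in 18 of 24 libraries, Ppia in 21), so a 0 is given here as a listed value and not as absence. In bulk samples of this kind, fewer cells of a type and less RNA per cell cannot be told apart. Marker genes were checked against the labels. Photoreceptor genes (10 genes) summed to 6.34 to 2529 FPKM in retina and to 0 to 137.8 FPKM in SC, and lens genes (8 genes) summed to 119 to 943 FPKM in the libraries labeled retina and to 0.0989 to 244 FPKM in SC. The upper ends in SC came from 1 library, replicate 1 of adult Cre-negative SC, which stood apart in having all 10 photoreceptor genes above 0 (137.8 FPKM in sum) and lens genes at 244 FPKM, within the range of retina, whereas no other SC library exceeded 8.87 FPKM for photoreceptor genes or 26.1 FPKM for lens genes. Markers of SC neurons (10 genes) summed to 120 to 897 FPKM in Cre-positive SC and to 31.9 to 1560 FPKM in Cre-negative SC, so transcripts of the target tissue were recovered with and without a tag.

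The 3 sequences below are shown because the results turn on their genes. Pou4f1, which was recovered almost everywhere, holds in its 3′ UTR a run of 18 A, marked in capitals in a window of 30 bases from GENCODE at chr14:104463025-104463054 (GRCm38, minus strand). Slc17a6 and Ebf3, the members called higher in Cre-positive SC at P0.5, are shown by the 250 bases before their RefSeq start (GRCm38.p6) at chr7:51621580-51621829 on the plus strand and chr7:137314446-137314695 on the minus strand. Capitals in the promoters mark the letters CCCNNGGG, the core bound by EBF factors.
Pou4f1: acatctAAAAAAAAAAAAAAAAAAcaaaaa
Slc17a6: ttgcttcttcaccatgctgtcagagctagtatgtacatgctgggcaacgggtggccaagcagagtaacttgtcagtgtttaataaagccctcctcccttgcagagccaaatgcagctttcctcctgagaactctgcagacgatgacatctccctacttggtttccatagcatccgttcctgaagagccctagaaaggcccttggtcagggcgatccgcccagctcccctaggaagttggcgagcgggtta
Ebf3: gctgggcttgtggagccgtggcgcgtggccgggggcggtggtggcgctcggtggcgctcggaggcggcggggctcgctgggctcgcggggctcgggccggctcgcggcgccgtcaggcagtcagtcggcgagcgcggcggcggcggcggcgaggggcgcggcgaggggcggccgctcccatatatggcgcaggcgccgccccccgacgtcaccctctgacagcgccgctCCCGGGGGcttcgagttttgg
Promoters of 6 members matched the RefSeq table (Pou4f1, Pou4f2, Sncg, Slc17a6, Isl1 and Ebf3). On either strand, CCCNNGGG was present once in the promoters of Ebf3 and Sncg, against 11.8% of all 32851 promoters of this length. ATNANTNAT, a motif of the POU4 family, was in 5.36% of all promoters and in none of the 6. A match is a description of letters and not a bound site.

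**Figure D1:**
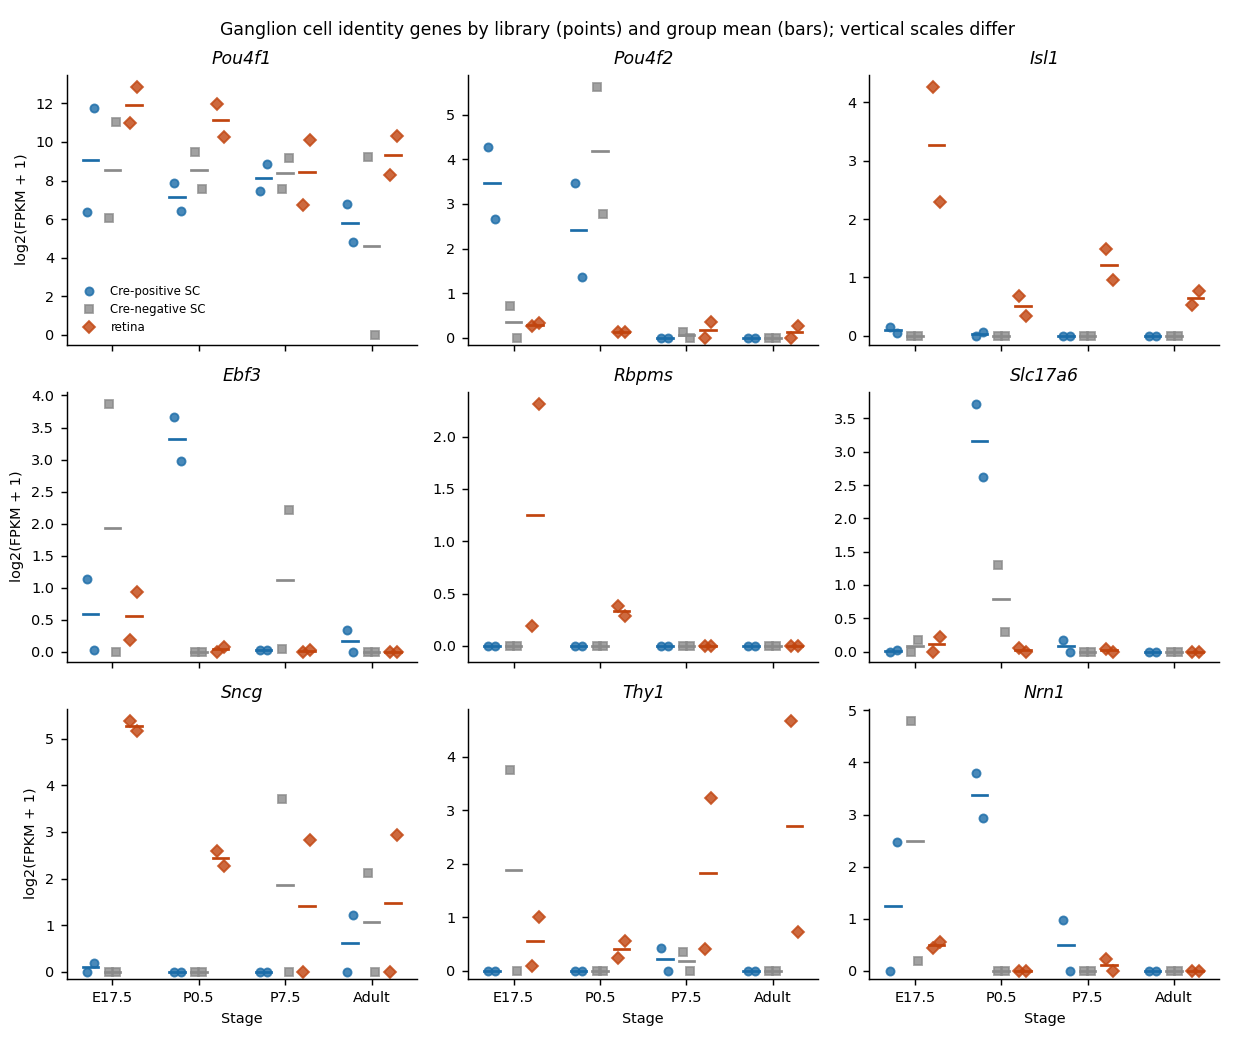
Levels of the 9 genes on the log2(FPKM + 1) scale in each library (points) by stage, with bars at the mean of the 2 replicates, for Cre-positive SC (circles), Cre-negative SC (squares) and retina (diamonds). Pou4f1 was at 27.5 FPKM or more in all but 1 library, Isl1 and Rbpms reached 1 FPKM in retina only, and Slc17a6, Ebf3 and Nrn1 were at 5.13 FPKM or more in both Cre-positive SC libraries of P0.5.

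Pou4f1 (Brn3a, chr14:104461676-104467999, minus strand), a POU-domain factor that maintains RGC subtypes, had by far the highest listed FPKM of the 9 mRNAs. In retina it was at 2036 and 7381 FPKM at E17.5, 4036 and 1226 at P0.5, 106 and 1091 at P7.5, and 315 and 1274 in adults. In Cre-positive SC it was at 80.3 and 3501 FPKM at E17.5, 231 and 86.0 at P0.5, 175 and 457 at P7.5, and 109 and 27.5 in adults. In Cre-negative SC, where no ribosome was tagged, it was at 66.5 and 2060 FPKM at E17.5, 705 and 191 at P0.5, 191 and 582 at P7.5, and 595 and 0 in adults. The Cre-positive and Cre-negative values overlapped at all 4 stages. Thus, Pou4f1 was recovered from SC also where no ribosome was tagged. The log2 differences between the groups, from -1.38 (SE 2.78, P0.5) to 1.20 (SE 2.78, adult), were smaller than their errors. As fitted, this leaves a wide range for a difference in either direction. These errors include a spread shared by replicate number, since the same replicate was the higher with and without Cre at each stage. At P0.5 Pou4f1 was lower with Cre in both replicates (231 against 705 and 86.0 against 191 FPKM). With the replicate number as a block in the fit, Pou4f1 was called at no stage (P0.5, limma adjusted p = 0.679). Pou4f1 is also expressed by neurons born in the SC. A run at least as long as the one shown above is found in 2.16% of 19624 genes, and 8.75% of the 423 genes with runs of 18 or more reached 1 FPKM in at least 12 of the 16 SC libraries, against 2.86% of 15430 genes whose longest run was 8 or fewer. Whether priming at this run contributed to the Pou4f1 reads was not tested.

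Pou4f2 (Brn3b, chr8:78433010-78436645, minus strand), the POU-domain factor that drives RGC differentiation in the embryo, had both Cre-positive SC libraries above both retina libraries at E17.5 and again at P0.5. It was at 18.4 and 5.36 FPKM with Cre at E17.5, whereas Cre-negative SC was at 0.639 and 0 and retina at 0.205 and 0.253. At P0.5 it was at 10.05 and 1.56 FPKM in Cre-positive SC but at 48.2 and 5.82 in Cre-negative SC, and at 0.0923 and 0.0904 in retina. Therefore the libraries with Cre lay above those without at E17.5, and the ranges overlapped at P0.5. Within each replicate number of P0.5, however, the library with Cre was the lower. None of the 12 libraries of P7.5 and adult tissue exceeded 0.285 FPKM.

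Isl1 (chr13:116298281-116309689, minus strand), a LIM-homeodomain factor that acts with Pou4f2 and is also expressed by amacrine and bipolar cells, was detected in retina at every stage, at 18.2 and 3.89 FPKM at E17.5, 0.596 and 0.272 at P0.5, 1.79 and 0.941 at P7.5, and 0.445 and 0.695 in adults. All 8 Cre-negative SC libraries listed it at 0, and the highest of the 8 Cre-positive SC libraries was at 0.110 FPKM, or about 1.4 estimated fragments. Each retina library was above every SC library. Ebf3 (chr7:137193673-137314445, minus strand), a helix-loop-helix factor of the EBF family expressed by RGCs and other retinal neurons, was distributed otherwise. In Cre-positive SC it was at 11.7 and 6.91 FPKM at P0.5 and at 1.21 and 0.0163 at E17.5, it was 0.0193 FPKM or less in both libraries of P7.5, and the adult libraries gave 0.268 and 0. Retina never exceeded 0.908 FPKM. Cre-negative SC listed Ebf3 at 0 in both libraries of P0.5 and of the adult, at 13.6 and 0 at E17.5 and at 0.0302 and 3.63 at P7.5. The 13.6 FPKM came from the shallowest library and corresponded to about 23.4 estimated fragments.

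Rbpms (chr8:33782643-33929863, minus strand), an RNA-binding protein that marks nearly all mouse RGCs, was listed at 0 in all 16 SC libraries. At these depths 3 fragments would give between 0.135 and 3.801 FPKM, so values under that were not detectable. In retina Rbpms was at 0.138 and 3.98 FPKM at E17.5 and at 0.306 and 0.217 at P0.5, and it was listed at 0 at P7.5 and in the adult, where 3 fragments would give at most 0.279 FPKM in any retina library. These are listed values, and a separate adult retina library, that without run-off, held 70 Rbpms reads.

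Slc17a6 (VGLUT2, chr7:51622006-51671119, plus strand), the vesicular glutamate transporter of RGC terminals and also of excitatory SC neurons, was at 12.2 and 5.13 FPKM in Cre-positive SC at P0.5, and both values lay above the 1.46 and 0.223 FPKM of Cre-negative SC. Retina was at 0.0338 and 0 FPKM at that stage and did not exceed 0.159 FPKM at any other. At E17.5 Cre-positive SC was at 0 and 0.0186 FPKM, at P7.5 it was at 0.127 and 0, and the 4 adult SC libraries listed the gene at 0. Nrn1 (neuritin, chr13:36725361-36735131, minus strand), a small membrane-anchored protein that promotes neurite growth, had a like course, with 12.9 and 6.68 FPKM in Cre-positive SC at P0.5 and 0 in both Cre-negative SC and both retina libraries. At E17.5, however, it was at 0 and 4.56 FPKM with Cre and at 26.8 and 0.144 without, where 26.8 FPKM came from about 17.9 estimated fragments of the shallowest library. It was at 0.962 and 0 FPKM in Cre-positive SC at P7.5 and listed at 0 in the adult. Nrn1 overlaps Fars2 by 920 bases on the opposite strand, and since use of strand in the quantification is not given in the sources used here, reads of the overlap cannot be assigned.

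Sncg (gamma-synuclein, chr14:34370274-34374789, minus strand), a small protein enriched in RGC somata and axons, was highest in embryonic retina, at 40.7 and 35.0 FPKM at E17.5, then at 5.04 and 3.82 at P0.5, and 0 in replicate 1 of the later stages, where replicate 2 was at 6.14 (P7.5) and 6.64 (adult). Only E17.5 stood apart from the other groups. In SC it exceeded 1 FPKM in replicate 1 of Cre-negative SC at P7.5 (12.1 FPKM), replicate 1 of adult Cre-negative SC (3.32) and replicate 2 of adult Cre-positive SC (1.31), and the adult values rested on about 1.4 estimated fragments each. The adult Cre-negative library is the one with photoreceptor and lens genes. Thy1 (chr9:44043384-44048579, plus strand), a glycosylphosphatidylinositol-anchored surface protein of RGCs and many other neurons, was above 0 in all 8 retina libraries, from 0.0667 FPKM at E17.5 to 24.4 in the adult, but the adult replicates were at 24.4 and 0.650 FPKM and so spanned nearly the whole range. In SC the highest value, 12.4 FPKM in replicate 1 of Cre-negative SC at E17.5, was worth about 3.3 estimated fragments. When the 12 groups were ordered by mean level, few neighbors in the order had libraries that did not overlap. There were 3 such steps of 11 for Isl1, 2 for Slc17a6, 1 each for Rbpms, Pou4f2 and Sncg, and none for Pou4f1, Thy1, Ebf3 and Nrn1. The share of such steps over all genes is not given here, so the counts only describe these genes. With no difference, 2 against 2 libraries of groups fixed beforehand lie apart in about 0.333 of cases. That figure does not apply here, because the groups were first ordered by mean and many were tied at 0.

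Cre-positive and Cre-negative SC were next compared at each stage with limma on log2(FPKM + 1), over genes at 1 FPKM or more in 2 or more of the 16 SC libraries. In all, 6 members passed this filter (Pou4f1, Pou4f2, Sncg, Slc17a6, Ebf3 and Nrn1), while Rbpms, Thy1 and Isl1 did not. A gene was called at a Benjamini-Hochberg adjusted p of 0.05 or less over all 5983 genes. Nothing in the labels gives separate animals to each library beyond the replicate number, so the p-values measure the spread between these samples.

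At P0.5, 2 of the 6 members were higher in Cre-positive SC, against 32.5% of all genes called in either direction, a share near that of the members. Slc17a6 was higher by 2.37 on the log2 scale (SE 0.47, limma adjusted p = 0.00239) and Ebf3 by 3.32 (SE 1.12, limma adjusted p = 0.0428). Slc17a6 reached 1 FPKM in only 1 SC library outside the Cre-positive group of P0.5, so it passed the filter through the group where it was high, and it kept its call without the filter. Since both Cre-negative libraries list Ebf3 at 0, its difference depends on the pseudocount and is not a fold change. The value for Nrn1 was of the same size at 3.37 (SE 1.27) but missed the threshold (limma adjusted p = 0.0687). Pou4f2 was at -1.78 (SE 1.04, limma adjusted p = 0.256) and Pou4f1 at -1.38 (SE 2.78, limma adjusted p = 1), and Sncg was listed at 0 in all 4 libraries. The median over all genes was itself 0.78, so that Slc17a6 lay 1.59 above it and Ebf3 2.55 above it, and the median of the 6 members was 1.19. The call of Slc17a6 was lost without replicate 1 of Cre-positive SC (1.82, limma adjusted p = 0.0750). The call of Ebf3 was lost when any 1 of the 4 libraries was left out (limma adjusted p = 0.126 to 0.269) and without the filter on low FPKM (limma adjusted p = 0.0721).

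Other measures also differed between these 4 libraries. The Cre-positive libraries had 4620 and 4923 genes above 0 FPKM and the Cre-negative libraries 2162 and 2546. Pax7, a transcription factor of SC neurons, was at 6.23 and 7.45 FPKM with Cre and listed at 0 without (difference 2.97, SE 0.27, limma adjusted p = 1.33e-05). It reached 1 FPKM in these 2 libraries alone and so passed the filter only through them. It was the only one of 4 SC neuron markers tested that was called, and the summed level of all 10 was 352 to 735 FPKM with Cre and 609 to 1560 without. C1qa, a complement gene of microglia, was at 0 with Cre and at 77.0 and 43.2 FPKM without. The part of these differences in the results for Slc17a6 and Ebf3 was not tested.

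At E17.5 none of the 6 members was called by limma, against 1.57% of all genes. An unadjusted p under 0.05 was found for 363 of the 5983 genes and for 1 member. This was Pou4f2, whose difference was 3.12 (SE 1.04, limma unadjusted p = 0.0126, adjusted p = 0.357). SC neuron markers summed to 891 and 897 FPKM in the libraries with Cre and to 470 and 597 FPKM in those without, and their part in the Pou4f2 value was not tested. Without replicate 2 of Cre-negative SC, the deepest library, Ebf3 and Nrn1 were called lower in Cre-positive SC at this stage. At P7.5 no member was called and 0% of all genes were, with 84 genes at an unadjusted p under 0.05 by limma. In the adult no member was called against 0.150% of all genes, and none without the Cre-negative library that held photoreceptor and lens genes, which gave Pou4f1 at 595 FPKM where the other replicate listed it at 0. No member had an unadjusted p under 0.05 at either of these stages, and the differences ran from -1.86 (Sncg, P7.5, SE 1.02) to 1.20 (Pou4f1, adult, SE 2.78).

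**Figure D2:**
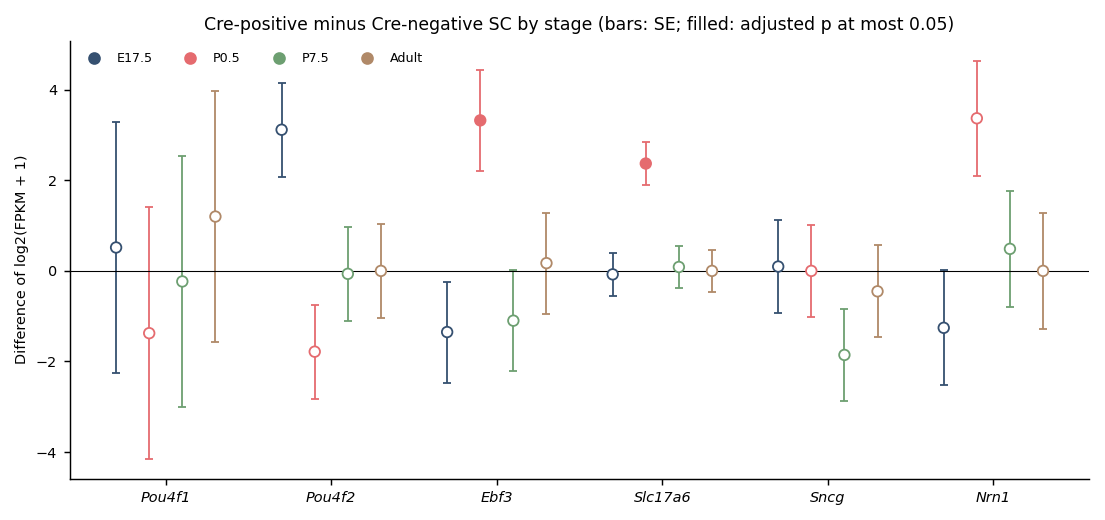
Difference of log2(FPKM + 1) between Cre-positive and Cre-negative SC for the 6 members tested, by stage, with bars of 1 standard error from the limma fit of 16 libraries. Filled points mark an adjusted p of 0.05 or less, which only Slc17a6 (2.37) and Ebf3 (3.32) reached, both at P0.5.

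Whether the Cre difference itself changed between stages was tested as an interaction. From E17.5 to P0.5 it fell for Pou4f2 by 4.90 (SE 1.46, limma adjusted p = 0.0294) and rose for Slc17a6 by 2.45 (SE 0.66, limma adjusted p = 0.0178), so 2 of 6 members were called against 27.1% of all genes. The change was 4.67 (SE 1.58, limma adjusted p = 0.0505) for Ebf3 and 4.63 (SE 1.80, limma adjusted p = 0.0880) for Nrn1, neither of which passed. The median of all genes changed by 1.59 in the same comparison, and relative to it the value of Slc17a6 was 0.86 and that of Pou4f2 -6.49. From P0.5 to P7.5 the Cre difference fell for Slc17a6 by 2.28 (SE 0.66, limma adjusted p = 0.0302), 1 of 6 members against 21.5% of all genes and a median of -1.21. From P7.5 to adult no member was called, against 0% of all genes and 134 genes at an unadjusted p under 0.05 by limma. These calls rested on few libraries. Pou4f2 lost its call in 5 of 8 refits that left 1 library out, namely each Cre-positive library of P0.5 (limma adjusted p = 0.0878 without replicate 1 and 0.257 without replicate 2), replicate 1 of Cre-negative SC at P0.5 (0.112), replicate 1 of Cre-positive SC at E17.5 (0.0777) and replicate 2 of Cre-negative SC at E17.5 (0.0570). For Slc17a6 the change from E17.5 to P0.5 lost its call without replicate 1 of Cre-positive SC (limma adjusted p = 0.157) or replicate 2 of Cre-negative SC (0.0976) of P0.5, and that from P0.5 to P7.5 kept it only without replicate 1 of Cre-negative SC of P0.5 (limma adjusted p = 0.0244).

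In retina, consecutive stages were compared over the 8 retina libraries and 4080 genes, among which were Pou4f1, Sncg, Thy1 and Isl1. No member was called at any step by limma. From E17.5 to P0.5, where 0% of all genes passed and 34 had an unadjusted p under 0.05, the values were -2.84 for Sncg (SE 1.79), -2.77 for Isl1 (SE 1.46), -0.80 for Pou4f1 (SE 0.997) and -0.15 for Thy1 (SE 1.44), beside a median of all genes of -0.50 that median-ratio scaling moved to -0.11. From P0.5 to P7.5, 0.0735% of all genes passed and 99 had an unadjusted p under 0.05 by limma. In that step Pou4f1 was at -2.70 (SE 0.997, limma unadjusted p = 0.00675, adjusted p = 0.828). The ranges of its libraries did not overlap, with 1226 to 4036 FPKM before and 106 to 1091 after. From E17.5 to P0.5 those of Sncg (35.0 to 40.7 against 3.82 to 5.04 FPKM) and Isl1 (3.89 to 18.2 against 0.272 to 0.596) did not overlap either. The share of all genes without overlap is not given here, and 2 against 2 libraries lie apart in about 0.333 of cases with no difference. From P7.5 to adult, where 0% of all genes passed and 57 had an unadjusted p under 0.05, the values lay between -0.57 (Isl1, SE 1.46) and 0.89 (Pou4f1, SE 0.997). Photoreceptor markers in the same libraries summed to 6.34 and 7.69 FPKM at E17.5, 21.4 and 46.9 at P0.5, and 541 and 2529 at P7.5, so the makeup of the retinal libraries changed over the stages at which these members were compared, and its part in their levels was not tested.

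Retina was compared with Cre-positive SC over all 24 libraries and 7193 genes, where 8 members were tested (all but Rbpms). Values are retina minus Cre-positive SC and do not give soma against axon alone. SC also yielded mRNA without a tag, and in retina other cells than RGCs carried tagged ribosomes. The part of either in these values was not tested. Tissue and number of PCR rounds differ together in this comparison and cannot be told apart. At E17.5, 2 of 8 members were higher in retina, against 1.32% of all genes called in either direction. Isl1 was higher by 3.18 (SE 0.52, limma adjusted p = 0.00433) and Sncg by 5.18 (SE 1.22, limma adjusted p = 0.0484), and for both genes the retina libraries lay above the SC libraries. Isl1 entered this fit only through retina, the group where it was high, since its 3 libraries at 1 FPKM or more were all retina, and it kept its call without the filter. The call of Isl1 held without any 1 of the 4 libraries and was lost when the 4 libraries of the stage were fitted alone (limma adjusted p = 0.743), as was that of Sncg. Sncg also lost its call without any 1 of its 4 libraries (limma adjusted p = 0.0513 to 0.256). Pou4f2 was at -3.18 (SE 0.88, limma adjusted p = 0.121). At P0.5, 3 of 8 members were lower in retina, against 27.9% of all genes. Slc17a6 was at -3.14 (SE 0.41, limma adjusted p = 1.85e-05), Ebf3 at -3.28 (SE 0.93, limma adjusted p = 0.0142) and Nrn1 at -3.37 (SE 1.05, limma adjusted p = 0.0237), beside a median of all genes of -0.33, from which they differed by -2.81, -2.95 and -3.04. Median-ratio scaling moved that median to -0.46 and left the 3 calls. Slc17a6 entered this fit through the Cre-positive SC libraries of P0.5, where it was high, since only 1 other library reached 1 FPKM. It kept its call without the filter. Slc17a6 kept its call without any 1 library. Ebf3 kept it only without replicate 2 of Cre-positive SC (limma adjusted p = 0.0422, against up to 0.140 without the others), and Nrn1 lost it without any 1 (limma adjusted p = 0.0565 to 0.193). The comparison shares its Cre-positive SC libraries with that against Cre-negative SC, so the 2 sets of values for P0.5 are not independent. At P7.5 no member was called against 0% of all genes and 212 at an unadjusted p under 0.05 by limma. In the adult no member was called against 0.0973% of all genes and 560 at an unadjusted p under 0.05 by limma. At P7.5 Isl1 was at 1.22 (SE 0.52, limma unadjusted p = 0.0324) and in the adult Thy1 was at 2.69 (SE 1.18, limma unadjusted p = 0.0365), the only members at those stages with an unadjusted p under 0.05.

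**Figure D3:**
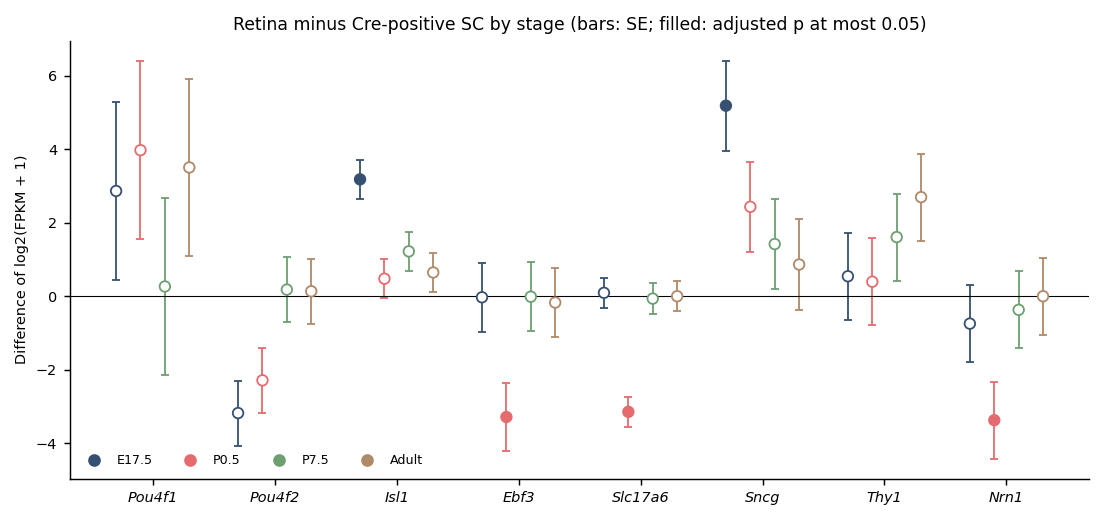
Difference of log2(FPKM + 1) between retina and Cre-positive SC for the 8 members tested, by stage, with bars of 1 standard error from the limma fit of 24 libraries. Filled points mark an adjusted p of 0.05 or less, with Isl1 and Sncg above 0 at E17.5 and Slc17a6, Ebf3 and Nrn1 below 0 at P0.5.

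A list of 30 other genes of RGCs was examined in the same fits, among them neurofilaments, other POU4, EBF and LIM factors, neuron-wide genes such as Tubb3, and markers of RGC subtypes. Of these, 10 passed the filter in SC. At E17.5 Ebf2, a relative of Ebf3, was called higher in Cre-positive SC, at 5.35 and 4.71 FPKM with Cre and 0 without (difference 2.59, SE 0.30, limma adjusted p = 0.00151). At P0.5 Foxp2, a forkhead factor of a subset of RGCs, was called higher, at 13.9 and 1.67 FPKM with Cre and 0.0239 and 0 without (difference 2.64, SE 0.60, limma adjusted p = 0.00586). Ebf2 and Foxp2 each reached 1 FPKM in no SC library but the 2 in which they were called, so both passed the filter only through the group where they were high. Their p-values are therefore not separate support, and results under other settings are not given for them. Each was 1 of 10 genes, against 1.57% of all genes called at E17.5 and 32.5% at P0.5. The other 8 tested genes did not pass at either stage, and none of the 10 passed at P7.5 or in the adult. The median difference of the list was -0.18 at E17.5 and 0.94 at P0.5, beside 0 and 0.78 over all genes. By listed values alone, Ebf2 in Cre-positive SC was highest at E17.5 and at 0 at P0.5, whereas Ebf3 was highest at P0.5. Among the markers of other cells, the genes called in a Cre comparison were Pax7 and C1qa above, Prkca of bipolar cells (5.04 and 5.45 FPKM with Cre, 0 without, limma adjusted p = 0.00198) and Slc6a9 of amacrine cells (4.86 and 4.10 FPKM with Cre, 0 and 0.0272 without, limma adjusted p = 0.0184), all at P0.5. No tested gene of the photoreceptor, Mueller glia, lens, myelin or astrocyte lists was called at any stage by limma.

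For the 5 members that reached 1 FPKM in at least 4 libraries, the genes of most similar pattern were sought by Pearson correlation over the 24 libraries among 4642 genes. Pou4f1 was most like Nras (r = 0.970, Spearman's rho = 0.960) and Efna5 (r = 0.965, rho = 0.954), and both of these also had high listed levels, with medians of 362 and 191 FPKM. Pou4f2 was most like Srcin1 (r = 0.949) and Gtf2e1 (r = 0.900), Sncg like Arl6ip4 (r = 0.921) and Knstrn (r = 0.890), Ebf3 like Armc6 (r = 0.956) and U2af1l4 (r = 0.936), and Nrn1 like Vdac3 (r = 0.988) and Bfar (r = 0.966). These 8 values rest on few libraries, since member and partner were both listed at 0 in 7 to 13 of the 24 and rho was between 0.546 and 0.910. The 24 points share their library, depth and amplification, and the correlations are a description. None of the 10 partners was in the lists of cell markers.

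Run-off libraries give reads counted on genes, in 1 library each, so their differences have no replicate check. For SC there were 3262914 reads without run-off and 349395 with it, or 10.7% as many, and the retina libraries held 4686284 and 315009, or 6.72%. Intervals and floors given here cover counting error only, because reads copied by PCR carried no molecular identifiers and do not stand for separate molecules.

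In adult Cre-positive SC, Nrn1 had 151 reads without and 0 with run-off, and Slc17a6 had 58 and 0. Their shares without run-off were 46.3 CPM (reads scaled to a common library total, exact 95% interval 39.2 to 54.3) and 17.8 CPM (13.5 to 23.0). With 0 reads the interval with run-off is 0 to 10.6 CPM, which lies below both of these. The shares without run-off were 5.39-fold (Nrn1) and 2.07-fold (Slc17a6) the 8.59 CPM that 3 reads would give with it. These folds are not lower bounds of the change. These same genes were listed at 0 in all 4 adult SC libraries of the FPKM set. Pou4f1 had 2255 reads without and 329 with run-off, 14.6% as many, and its share was 691 CPM (663 to 720) without and 942 CPM (843 to 1049) with run-off. Its number of reads thus fell while its share of the smaller library did not. Thy1 had 1 read without run-off and Rbpms, Pou4f2, Sncg, Isl1 and Ebf3 had none in either SC library, which allows up to 0.919 CPM without run-off at 3 reads. Of the 3 members with 10 or more reads in the 2 libraries together, 2 had a share with run-off of at most 0.5 times that without, against 69.2% of 4325 such genes.

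In adult retina 8 members had reads without run-off. Pou4f1 had 2988 reads without and 248 with run-off, Isl1 131 and 1, Sncg 112 and 13, Ebf3 86 and 0, Rbpms 70 and 0, Nrn1 45 and 0, Thy1 16 and 0, and Slc17a6 1 and 0, and Pou4f2 had none in either. The share of Isl1 was 28.0 CPM (exact 95% interval 23.4 to 33.2) without and 3.17 CPM (0.0804 to 17.7) with run-off. Without run-off Ebf3 was at 18.4 CPM (14.7 to 22.7), 1.93-fold the 9.52 CPM that 3 reads would give with it. Rbpms was at 14.9 CPM (11.6 to 18.9) without run-off. With 0 reads the interval with run-off is 0 to 11.7 CPM, which lies below that of Ebf3 without run-off but overlaps that of Rbpms. Sncg instead had 23.9 CPM (19.7 to 28.8) without and 41.3 CPM (22.0 to 70.6) with run-off, intervals that overlap, and Pou4f1 had 638 CPM (615 to 661) and 787 CPM (692 to 892), intervals that do not. A lower share, at most 0.5 times, was found for 5 of the 7 members with 10 or more reads, against 60.2% of 7019 genes. Of these 5, only Isl1 and Ebf3 had intervals that did not overlap. At an equal share Thy1 would have had 1.08 reads and Nrn1 3.02 reads with run-off, so their 0 reads do not show a lower share. Counted as reads and without scaling, all 3 members in SC and all 7 in retina had at most 0.5 times as many with run-off, as did 87.8% and 89.8% of all such genes. Ebf3 and Nrn1, with 86 and 45 reads here, were listed at 0 in both adult retina libraries of the FPKM set, as was Rbpms.

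**Figure D4:**
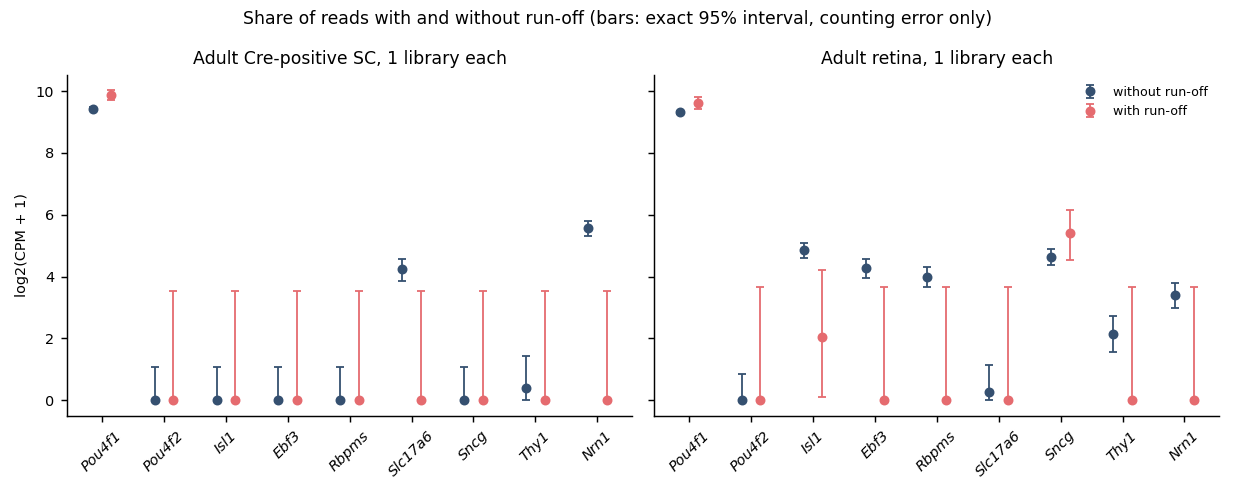
Share of reads, as log2(CPM + 1), of the 9 genes in adult Cre-positive SC and retina without and with run-off, 1 library each, with exact 95% intervals for counting error only. Nrn1 and Slc17a6 in SC, and Ebf3 and Rbpms in retina, are at 0 CPM with run-off and at 14.9 CPM or more without it, and Pou4f1 stays between 638 and 942 CPM.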

How the data were processed

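Ribosome-bound mRNA was sequenced in 24 libraries (12 groups with 2 replicates) and, for run-off, in 4 adult libraries without replicates. Per the submitters' processing notes, alignment to mm10 used TopHat2 2.0.12. The authors then computed FPKM with Cufflinks 2.2.1 (24 libraries, 1 file each, 23995 genes). Run-off files hold the deposited count per gene, made with HTSeq 0.6.1p1 and not normalized. Library input in that experiment followed the cDNA yield, which bears on the read totals.

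Groups and replicate numbers came from the labels. Genes with a missing entry (4) were left out. FPKM were tested as log2(FPKM + 1) by limma 3.58.1 (trend, robust, two-sided) under R 4.3.3 with statmod 1.5.0, in place of the count-based NOISeq of the study, because FPKM are not counts. Genes entered at 1 FPKM in at least 2 libraries of a fit (5983 in 16 SC libraries, 4080 in 8 retina libraries, 7193 in 24), and p-values were adjusted by Benjamini-Hochberg within a contrast. A difference on this scale understates changes of low genes. The fit of the 16 SC libraries was tested on simulated data for the Cre comparison at P0.5, and the other fits were not. The depth estimate came from 6372 genes with 1 protein-coding transcript, whose low values lay near whole multiples of 1 fragment in 53.6% to 70.9% of cases, so it is approximate. CPM intervals are exact Clopper-Pearson. Positions and transcript lengths came from GENCODE for GRCm38, which is mm10, and promoters from RefSeq (GRCm38.p6). Python 3.11.15, pandas 2.3.3, numpy 2.4.6, scipy 1.17.1 and matplotlib 3.10.9 were used.

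The members, the 10 other marker lists and the tests were chosen with earlier results of these data known. Named genes are the 9 members, in each other list the genes called in a Cre comparison (at most 4 by smallest p in each direction), and the 2 genes most correlated with each member that reached 1 FPKM in 4 libraries. Alternatives were a pseudocount of 0.1, no filter, median-ratio scaling, the replicate number as a block, the 4 libraries of a stage alone, leaving out each library, and for run-off unscaled or median-ratio scaled reads and a minimum of 3 reads.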

Additional observations from a re-analysis of the deposited data

Results flagged for a closer look

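For 2 members the Cre difference changed between stages by a test of the change itself (interaction term in limma, Benjamini-Hochberg over 5983 genes). The difference between Cre-positive and Cre-negative SC for Pou4f2 changed by -4.90 (log2, SE 1.46, limma adjusted p = 0.0294) from E17.5 to P0.5, being higher with Cre in both libraries of E17.5 and overlapping at P0.5. For Slc17a6 it changed by 2.45 (SE 0.66, limma adjusted p = 0.0178) from E17.5 to P0.5 and by -2.28 (SE 0.66, limma adjusted p = 0.0302) from P0.5 to P7.5. Over all genes 27.1% and 21.5% passed in these comparisons, and leaving out 1 library ended the calls in 5, 2 and 7 of 8 refits. The median of all genes changed by 1.59 from E17.5 to P0.5 and by -1.21 from P0.5 to P7.5. Relative to it Slc17a6 changed by 0.86 and then by -1.07, and Pou4f2 by -6.49 from E17.5 to P0.5. With a pseudocount of 0.1 Slc17a6 lost its call in both steps.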

How the results depend on the processing

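The files give no read totals for the 24 libraries and SC depth differed widely, so 0 values of the shallow libraries bear little weight, and with 2 replicates a lone remaining sample was assumed to vary like the other groups. Under the settings tried no called value changed sign. Over the 10 calls of single members, 38 of 47 values under other settings kept the call. These 47 do not include the refits with 1 library left out, under which the calls were less stable. Every call was lost in at least 1 such refit, except those of Isl1 at E17.5 and Slc17a6 at P0.5 between retina and Cre-positive SC. At P0.5 the Cre comparison called 1 member without the filter, 3 with a pseudocount of 0.1 or with the 4 libraries of the stage alone (2 in the reported fit) and 0 to 1 when 1 library was left out, and that of E17.5 called 0 to 2. The change of the Cre difference from E17.5 to P0.5 called 1 member with a pseudocount of 0.1 (2 reported) and 0 to 3 with 1 library left out, and that from P0.5 to P7.5 called 0 with that pseudocount (1 reported), 2 with the replicate block (Slc17a6 and Ebf3) and 0 to 1 with 1 left out. Retina against Cre-positive SC at E17.5 called 1 member each with a pseudocount of 0.1, without the filter and with the replicate block (2 reported), 0 with the 4 libraries of the stage alone and 1 to 2 with 1 left out, and at P0.5 6 with the 4 libraries alone (3 reported) and 1 to 2 with 1 left out.

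Among all genes, 94 were called for Cre at E17.5, but 19 with the replicate block, 0 with the stage alone and 126 to 865 with 1 library left out, and 1944 at P0.5 became 448 to 1244 with 1 left out. For the adult 9 became 6 without the filter, 0 with the block or the stage alone and 22 to 112 with 1 left out, and P7.5 stayed at 0 except with 1 left out (0 to 55). The interactions called 1621 and 1285 genes, and 188 to 2089 and 23 to 1153 with 1 left out. Retina against Cre-positive SC called 95 genes at E17.5, 57 with a pseudocount of 0.1, 219 without the filter and 0 with the stage alone, 2007 at P0.5 and 3370 with the stage alone, and 7 in adults, 15 with the block and 0 with the stage alone, while its count of 0 at P7.5 became 4 without the filter and 10 with the stage alone. With 1 library left out these were 23 to 512 at E17.5, 611 to 1298 at P0.5, 0 to 106 at P7.5 and 37 to 149 in adults. Between retina stages 3 genes at most were called, and 0 to 31 with 1 left out. The cause of these changes was not tested. The replicate numbers were not taken as pairs in the reported fits, because the labels give them no shared litter or day. Same-numbered Cre-positive and Cre-negative SC did deviate together, with r of 0.417 for E17.5, 0.426 for P0.5 and 0.324 for P7.5, but 0.0595 for adults. The reported fits therefore do not remove a spread shared by replicate number, and the replicate block is the alternative that does. The replicate block also gave 3 members for the change from E17.5 to P0.5, and under it Nrn1 lost its call (and Pou4f2 gained one) between retina and Cre-positive SC at P0.5 (limma adjusted p = 0.0519). Of 108 mean levels, 2 moved by more than 1 SD under median-ratio scaling, Pou4f2 in retina at P0.5 and Ebf3 in Cre-positive SC at P7.5, to 0.113 and 0.0232 on the log2(FPKM + 1) scale.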
